A study of Mus musculus with 56 samples.

Results

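The 37 genes encoded by mitochondrial DNA were followed in the livers of 56 mice. They are all the genes that the annotation of build GRCm38 places on the mitochondrial chromosome, chrM, with symbols that begin with mt-, and they were matched to the count files by Ensembl identifier, where all 37 were found. They comprise 13 mRNAs, 2 rRNAs and 22 tRNAs among the 45513 genes listed. Their RNA was measured in poly(A)-selected libraries of whole liver, where fewer cells of a type and less RNA per cell cannot be told apart.

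The mice were female APOE*3Leiden.CETP mice, a transgenic strain used as a model of human-like lipoprotein metabolism, which carry no leukemia, and the age given for the mice used is 9 to 14 weeks. A run-in of 3 weeks on the diet preceded treatment, and the age at tissue collection is not given in the sources used here. All received a Western-type diet with 15% cacao butter and 0.15% cholesterol, and each of the 7 groups has 8 sequenced mice. Imatinib (150 mg/kg by gavage, 2 times daily), nilotinib (10 or 30 mg/kg once daily) and ponatinib (3 or 10 mg/kg once daily), tyrosine kinase inhibitors (TKIs) of BCR-ABL1, were set against vehicle, 5% carboxymethyl cellulose. The once-daily groups and control got a further vehicle gavage, and the TKIs were given for 16 weeks. A further group received L-NAME, an inhibitor of nitric oxide synthase, in drinking water (0.12% to 0.2%) with vehicle by gavage, for a time not given in the sources used here.

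Mitochondrial DNA is a small circle that encodes core subunits of the respiratory chain and of ATP synthase, together with the rRNAs and tRNAs that translate them inside the organelle. Both strands are transcribed as long precursors, and most mRNAs and rRNAs are released when the tRNAs that lie between them are cut out. All other subunits of these complexes, and the polymerase, the processing enzymes and the ribosomal proteins of mitochondria, are encoded in the nucleus, and hepatocytes are rich in mitochondria.

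A stretch of this chromosome is also present in nuclear DNA, which limits the members that short reads can measure. Annotated nuclear pseudogenes on chr1, within chr1:24611535-24616197, match chrM from position 6394, inside mt-Co1, to position 11042, inside mt-Nd4, a span of 4649 bases. Reads that fit both places have no unique position and were counted on no gene. Both edges of the copied stretch are shown here on the plus strand of GRCm38, at chrM:6364-6423 and chrM:11013-11072, with the bases that the nuclear pseudogenes share in capitals.
mt-Co1, start of the copied stretch: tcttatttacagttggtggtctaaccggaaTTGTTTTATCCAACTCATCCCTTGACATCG
mt-Nd4, end of the copied stretch: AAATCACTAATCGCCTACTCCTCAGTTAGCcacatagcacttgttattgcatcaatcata

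The genes between these edges have almost no counted reads. Of the 75-base windows of each gene, 99.5% of mt-Co2, 99.5% of mt-Atp6, 99.9% of mt-Co3, 97.8% of mt-Nd3 and 98.7% of mt-Nd4l occur letter for letter in an annotated nuclear transcript. The read length is not given in the sources used here, and windows of 50 bases gave shares of 98.0% or more for these 5 genes. mt-Co2, mt-Co3 and mt-Atp6, subunits of cytochrome c oxidase and of ATP synthase, had medians of 6.5, 7.0 and 7.0 reads per mouse, and mt-Nd3 and mt-Nd4l, small subunits of complex I, had medians of 0. mt-Atp8, the other ATP synthase subunit of this genome, had 0 reads in all 56 mice. Its windows match no annotated nuclear transcript, but it lies between copied genes and its reading frame overlaps mt-Atp6 by 43 bases, in capitals in the following stretch, chrM:7907-7989 on the plus strand. Reads that overlap 2 genes can be counted on neither.
mt-Atp8 and mt-Atp6: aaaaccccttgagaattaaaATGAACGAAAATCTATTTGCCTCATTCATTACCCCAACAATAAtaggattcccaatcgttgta
The counts of these 6 mRNAs therefore do not measure their expression, and the part of the nuclear copy in the 0 reads of mt-Atp8 was not tested.

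In mt-Co1 39.8% and in mt-Nd4 61.5% of windows were shared in the same way, and the rest of both genes gave reads. The chr1 pseudogene Gm29216 held 405 of the shared windows of mt-Co1. Gm13340, a pseudogene on chr2 with a median of 104 counted reads per mouse, held 220. Gm13341, also on chr2 and with a median of 17 reads, held 138 windows of mt-Co2. The other mRNAs were nearly free of such copies, with 5.7% for mt-Nd2, 1.7% for mt-Nd5 and 0% for mt-Nd1, mt-Nd6 and mt-Cytb. Thus 7 mRNAs had reads of their own. The tRNAs are shorter than a fragment of such a library, and 11 of 22 had 0 reads in every mouse. A further 7 tRNAs failed the filter on low counts, with at most 535 reads in any mouse and a highest median of 0.5 reads. In all, 16 members entered the tests, namely 2 rRNAs, 10 mRNAs and 4 tRNAs (mt-Ti, mt-Tm, mt-Tw and mt-Tp), and 21 did not.

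**Figure D1:**
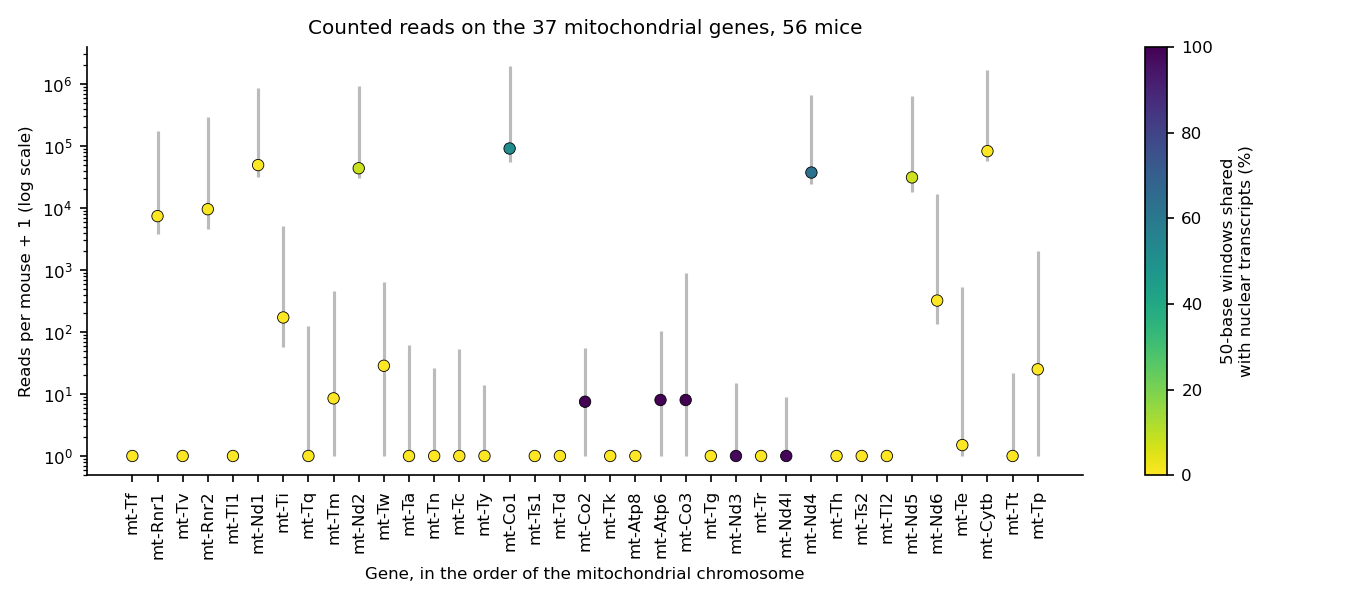
Reads per mouse plus 1 on each of the 37 genes in chromosome order, on a log scale, where points are medians and lines run from the lowest to the highest of 56 mice. Colour gives the percentage of 50-base windows found in nuclear transcripts, and the mRNAs coloured near 100% have medians of 0 to 7.0 reads, while mt-Co1, mt-Nd4 and the uncopied mRNAs other than mt-Nd6 have medians of 31131.5 or more.

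The most abundant readable mRNA per length was mt-Cytb, the cytochrome b subunit of complex III. Its median level over the 56 mice was 9142 CPM (counts scaled to a library of 1000000 reads, with TMM factors) per kb of gene. The following levels, on the same scale, were 7446 for mt-Co1 (the catalytic subunit of cytochrome c oxidase), 6428 for mt-Nd1, 5427 for mt-Nd2, 3381 for mt-Nd4 and 2235 for mt-Nd5, all 4 subunits of complex I. Counted over unshared windows alone, mt-Co1 came first at 13000 CPM per kb, followed by mt-Cytb at 9774 and mt-Nd4 at 9282. The order of mt-Co1, mt-Cytb and mt-Nd4 thus turned on how the copied stretch was treated.

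mt-Nd6, a complex I subunit and the sole mRNA of the other strand, had a level of 79.6 CPM per kb. The rRNAs mt-Rnr1 and mt-Rnr2, of the small and the large mitochondrial ribosomal subunit, stood at 914.5 and 699.3 CPM per kb in these poly(A)-selected libraries. That is below 6 of the readable mRNAs. These rRNA levels are not the abundance of rRNA in the tissue, since RNA without an A tail is selected against in such libraries.

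Mice of the same group differed least in mt-Nd1, with a within-group SD of 0.22 on the log2 CPM scale, in mt-Nd4 (0.22) and in mt-Cytb (0.23). The SD was 0.38 and 0.40 for mt-Rnr1 and mt-Rnr2, and 0.54 for mt-Ti. mt-Nd6 varied most among the mRNAs, at 0.65.

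The libraries held 5342379 to 97473341 reads on genes, with a median of 7570238. L-NAME mouse 10 had the most, and the next deepest library had 17996732. The 9 hepatocyte markers were present in every group and summed to between 65560 and 145600 RPM (reads per 1000000 reads on genes). The mitochondrial genes took a median of 4.30% of the reads on genes in control mice. Nilotinib 30 mg/kg (5.12%), imatinib (5.04%) and L-NAME (4.54%) had higher medians, and nilotinib 10 mg/kg (4.22%) and both doses of ponatinib (4.21% at 3 and 4.23% at 10 mg/kg) had lower ones. The range over control mice was 3.92% to 4.70%, and the ranges of all 6 treated groups overlapped it.

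A subset of 5 mice stood apart. These were the mice in which more than 12% of uniquely aligned reads lay outside genes, namely imatinib mouse 21, nilotinib 30 mg/kg mice 31 and 44, ponatinib 10 mg/kg mouse 14 and L-NAME mouse 10, with 12.7% to 16.8%. The other 51 mice ranged from 7.55% to 11.9%. The level of mt-Nd6 was 89.0 to 161.6 CPM in the 5 mice and 17.0 to 66.7 CPM in the 51 others, with no overlap. CT010467.1, an annotated rRNA gene on the minus strand at chr17:39846353-39848827, gave 55.2 to 199.1 RPM in the 5 mice and 1.59 to 28.0 in the others. The library kit is not stated to mark strand. Gm42418, a lincRNA on the plus strand, lies within CT010467.1, and their medians in control mice were 4627 and 6.24 RPM. By these positions the 2 strands were counted apart there. Whether the libraries kept strand was not tested. If they did not, reads from mt-Nd6 and from RNA of the opposite strand cannot be told apart over the whole length of mt-Nd6. Its annotated overlap with mt-Nd5 is 14 bases.

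Reads outside genes also differed by group. Against a median share of 7.85% in control mice, ponatinib 10 mg/kg (10.9%) and L-NAME (10.7%) had the highest medians. Imatinib had 9.80%, the lower and the higher dose of nilotinib had 9.51% and 9.84%, and ponatinib 3 mg/kg had 8.41%. Gm42418, a lincRNA at chr17:39846958-39848788 that overlaps the rRNA gene CT010467.1, was called higher in 5 of the 6 treated groups, all but ponatinib 3 mg/kg. Its medians were 4627 RPM in control mice, 11920 for ponatinib 10 mg/kg, 9780 for L-NAME and 7318 for imatinib. They were 7480 and 8904 for the lower and the higher dose of nilotinib, and 5614 for ponatinib 3 mg/kg. Gm42418 was singled out after its values were seen, and its part, like that of the reads outside genes, in the results that follow was not tested beyond the fits that hold these values as covariates.

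**Figure D2:**
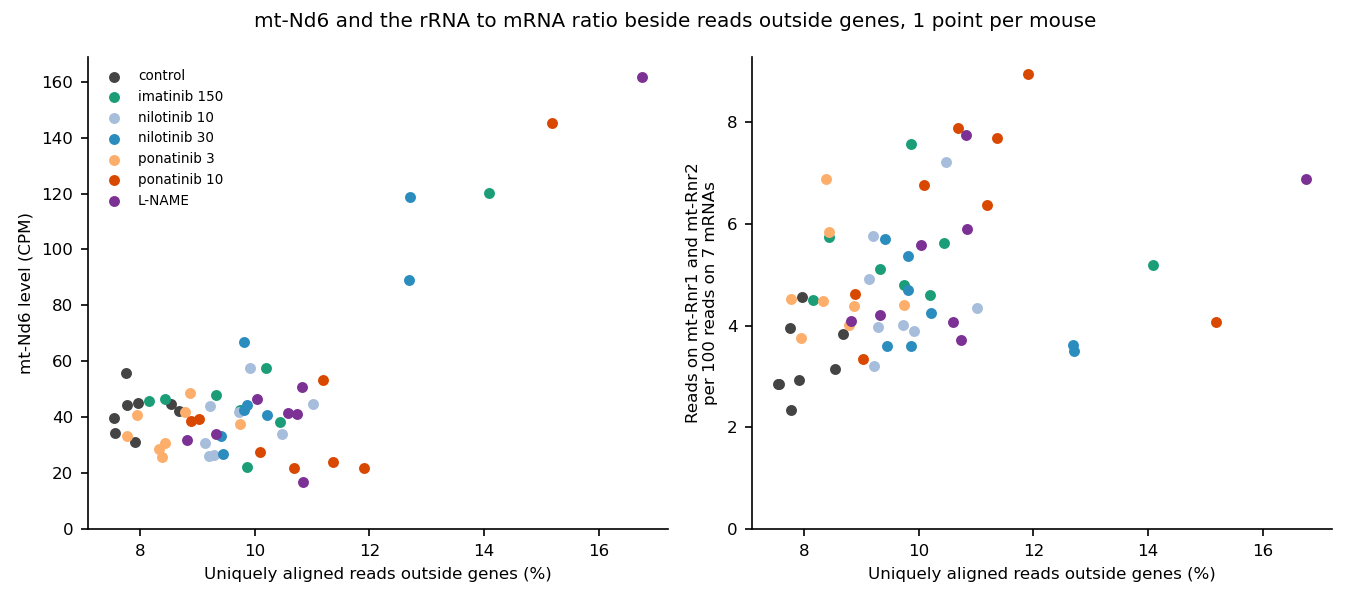
The level of mt-Nd6 in CPM (left) and the reads on both rRNAs per 100 reads on the 7 readable mRNAs (right), against the percentage of uniquely aligned reads outside genes, 1 point per mouse and coloured by group. The 5 mice above 12% have mt-Nd6 levels of 89.0 to 161.6 CPM, above the 66.7 CPM of the highest other mouse.

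All 56 mice entered 1 fit with edgeR's quasi-likelihood test, from which each treatment was set against control. A gene was called at an unadjusted p-value below 0.01 over 14314 genes tested, and p-values adjusted by Benjamini-Hochberg over all of them stand beside. The 6 comparisons share the same 8 control mice. The median log2 fold change of all genes lay between -0.02 and 0.03 in the 6 comparisons.

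Both rRNAs, mt-Rnr1 at chrM:70-1024 and mt-Rnr2 at chrM:1094-2675 on the plus strand, were called higher than control in 5 of the 6 treated groups, and in 3 of these at an adjusted p below 0.05. In control mice mt-Rnr1 ranged from 391.3 to 860.6 CPM around a median of 557.4, and mt-Rnr2 from 560.2 to 1015 CPM around a median of 697.8. With imatinib mt-Rnr1 ranged from 802.7 to 1628 CPM (median 1098). mt-Rnr2 ranged from 1128 to 2328 CPM (median 1494) in the same mice, and all 8 were above every control mouse. The log2 fold change was 0.93 ± 0.18 (SE, n = 8 per group) for mt-Rnr1, with an adjusted p of 0.000346, and 1.07 ± 0.19 for mt-Rnr2, with an adjusted p of 0.000144.

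Ponatinib 10 mg/kg gave differences of similar size. mt-Rnr1 ranged from 732.4 to 1532 CPM (median 1234) and mt-Rnr2 from 966.8 to 2140 CPM (median 1638). In each rRNA 7 of 8 mice were above every control mouse. The log2 fold changes were 0.92 ± 0.18 (adjusted p 0.000304) and 1.03 ± 0.19 (adjusted p 0.000173).

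With L-NAME mt-Rnr1 ranged from 689.0 to 1649 CPM (median 916.5), and 6 of 8 mice exceeded every control mouse. mt-Rnr2 ranged from 753.3 to 2778 CPM (median 1128), and 5 mice did so. The log2 fold changes were 0.77 ± 0.18 for mt-Rnr1 (adjusted p 0.00232) and 0.79 ± 0.19 for mt-Rnr2 (adjusted p 0.00338), and both were called without L-NAME mouse 10 (0.64 and 0.53). A higher rRNA level was thus also measured in a group that received no TKI.

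At the smaller doses and with nilotinib the differences were smaller and did not pass the adjusted threshold of 0.05. Ponatinib 3 mg/kg had mt-Rnr1 at 662.1 to 1298 CPM (median 826.4) and mt-Rnr2 at 834.1 to 1543 CPM (median 1025). Their log2 fold changes were 0.53 ± 0.18 (p 0.00408, adjusted p 0.266) and 0.57 ± 0.19 (p 0.00386, adjusted p 0.265). The groups overlapped, with 3 and 5 of 8 mice above every control mouse. Neither was called without control mouse 40 or without ponatinib 3 mg/kg mouse 41 or 47, and 1 was without control mouse 1 or 12.

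Nilotinib 30 mg/kg had mt-Rnr1 at 592.2 to 1163 CPM (median 854.4) and mt-Rnr2 at 824.8 to 1472 CPM (median 1053). The log2 fold changes were 0.52 ± 0.18 (adjusted p 0.0697) and 0.58 ± 0.19 (adjusted p 0.0547). In both rRNAs 4 of 8 mice were above every control mouse. Of the 5 members called with this dose, 0 were called without its mouse 15, 1 without its mouse 54 or control mouse 1, 33 or 40, 2 without its mouse 4 or 20, and 3 without its mouse 44 or control mouse 12, 46 or 52. With nilotinib 10 mg/kg mt-Rnr1 ranged from 494.6 to 1224 CPM (median 722.4) and mt-Rnr2 from 724.8 to 1581 CPM (median 949.6). Neither was called, at 0.40 ± 0.18 (p 0.0284) for mt-Rnr1 and 0.47 ± 0.19 (p 0.0162) for mt-Rnr2, with 3 of 8 mice above every control mouse in each.

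The rRNAs were also set against the mitochondrial mRNAs of the same mouse. Control mice had 2.33 to 4.57 reads on the 2 rRNAs per 100 reads on the 7 readable mRNAs, with a median of 3.04. The ratio was 4.51 to 7.58 with imatinib (median 5.16), and 7 of 8 mice were above every control mouse. It was 3.35 to 8.96 with ponatinib 10 mg/kg (median 6.57), where 6 mice were above, and 3.73 to 7.76 with L-NAME (median 4.89), where 4 were. Ponatinib 3 mg/kg had a median of 4.45, with 2 mice above every control mouse, and nilotinib 10 and 30 mg/kg had medians of 4.18 and 3.93, with 3 mice each. The ratio was added after the values were seen and has no test. Within the rRNAs, the reads on mt-Rnr2 per 100 reads on mt-Rnr1 overlapped the control range (111.1 to 160.5) in every group, with medians of 116.3 to 134.2 in the treated groups against 124.5.

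mt-Ti is the isoleucine tRNA that directly follows mt-Nd1 and shares its last 2 bases with it. It was the sole tRNA called in the main fit of the 56 mice, with TMM factors, the filter on low counts and no covariate. It is printed whole because it carries the tRNA result, at chrM:3706-3774 on the plus strand, with no part in capitals.
mt-Ti: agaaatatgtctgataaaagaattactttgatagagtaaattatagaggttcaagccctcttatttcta
Reads on it could come from the tRNA or from longer RNA that holds it, and these cannot be told apart. Control mice had 9.92 to 22.8 CPM of mt-Ti (median 14.4). The range was 14.8 to 38.4 CPM with imatinib (median 25.9), with a log2 fold change of 0.82 ± 0.25 (adjusted p 0.0263). With ponatinib 10 mg/kg it was 14.4 to 52.5 CPM (median 28.5), with 0.95 ± 0.25 (adjusted p 0.00691). With 6 and 7 of 8 mice above every control mouse, these groups overlapped control in a minority of mice. With nilotinib 30 mg/kg the range was 16.0 to 36.1 CPM (median 20.8) and the log2 fold change 0.68 ± 0.25 (adjusted p 0.1). With L-NAME it was 11.3 to 48.5 CPM (median 22.1), with 0.75 ± 0.25 (adjusted p 0.0365), and it was no longer called without mouse 10 (0.53). In both of these groups 3 of 8 mice were above every control mouse, and the rest overlapped. Nilotinib 10 and ponatinib 3 mg/kg had log2 fold changes of 0.54 (p 0.0367) and 0.44 (p 0.0856). mt-Tm, mt-Tw and mt-Tp, the tRNAs for methionine, tryptophan and proline, had median levels of 0.99, 3.49 and 2.85 CPM and were not called in that fit. For mt-Tp the range was 0.69 to 3.64 CPM in control mice (median 2.77) and 1.69 to 13.2 CPM with imatinib (median 7.04), with 5 of 8 mice above every control mouse. Its log2 fold change was 1.39 ± 0.55 (p 0.0141, adjusted p 0.0969), and it was called by DESeq2, in the fit of these 2 groups alone, without the L-NAME group, without L-NAME mouse 10 and with the Gm42418 covariate. With L-NAME mt-Tp was called by limma voom and with that covariate.

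**Figure D3:**
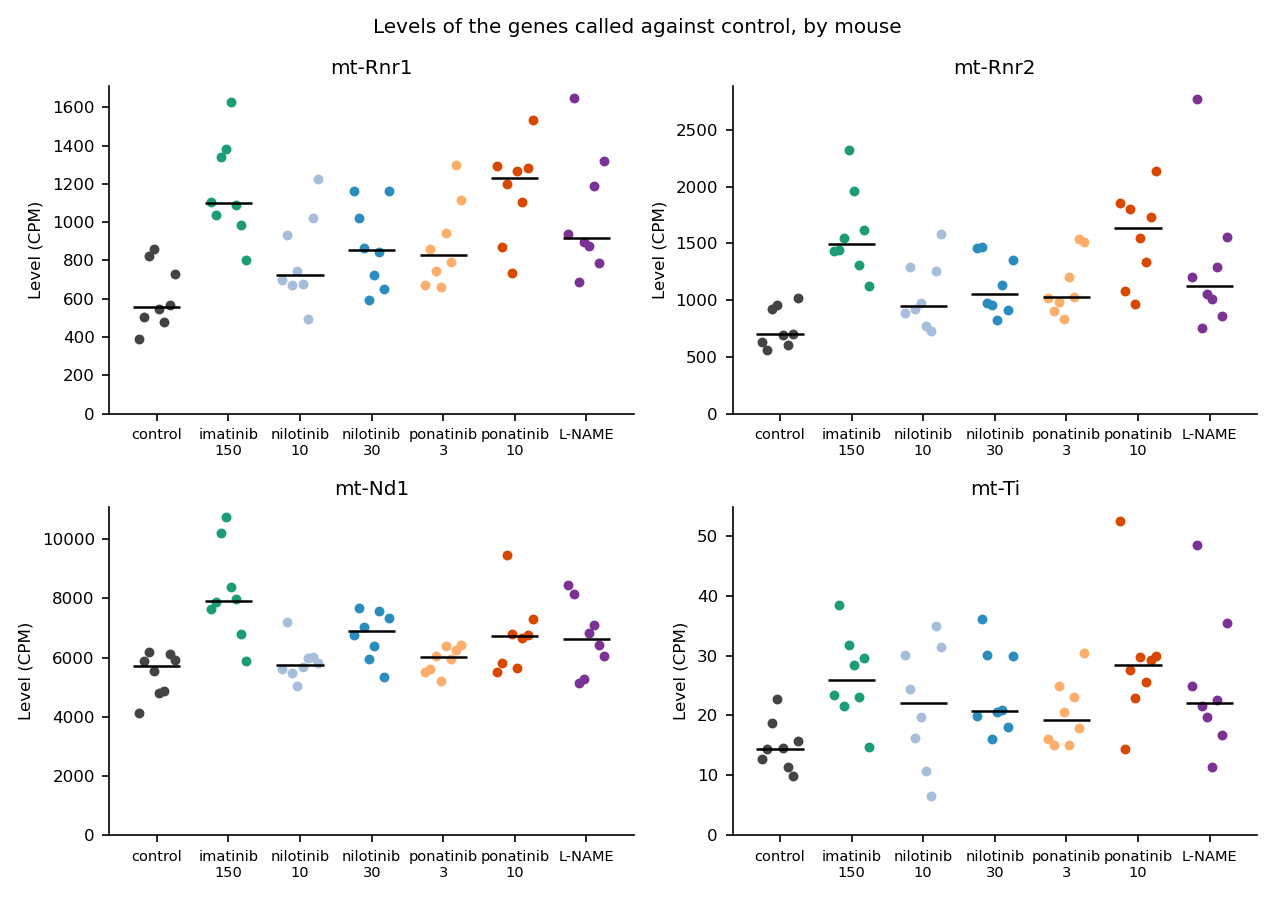
Levels of mt-Rnr1, mt-Rnr2, mt-Nd1 and mt-Ti in CPM, each axis starting at 0, with 1 point per mouse, 8 mice per group and a line at the group median. In mt-Rnr2 all 8 imatinib mice (1128 to 2328 CPM) lie above the highest control mouse (1015 CPM).

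Among the mRNAs, mt-Nd1, which encodes a membrane subunit of complex I and follows the rRNAs on the plus strand at chrM:2751-3707, was called in 4 comparisons. Control mice ranged from 4119 to 6181 CPM (median 5721). With imatinib the range was 5899 to 10740 CPM (median 7922), 7 of 8 mice were above every control mouse, and the log2 fold change was 0.59 ± 0.11 (adjusted p 0.000296). In the other 3 groups called the difference was smaller, and 5 or 6 of 8 mice were above every control mouse. With nilotinib 30 mg/kg the range was 5344 to 7686 CPM (median 6906) and the log2 fold change 0.32 ± 0.11 (adjusted p 0.0779). With ponatinib 10 mg/kg it was 5519 to 9477 CPM (median 6713), with 0.31 ± 0.11 (adjusted p 0.0516). With L-NAME it was 5151 to 8444 CPM (median 6616), with 0.30 ± 0.11 (adjusted p 0.0704). Neither of the last 2 calls held without the 5 mice with most reads outside genes.

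mt-Nd2, a further complex I subunit at chrM:3914-4951, was called with imatinib alone in the fit of the 56 mice. Control mice had 4641 to 6108 CPM (median 5583) and imatinib mice 5431 to 10740 CPM (median 6915), with 7 of 8 above every control mouse. The log2 fold change was 0.46 ± 0.13 (adjusted p 0.0183). In the other 5 comparisons it lay between -0.06 and 0.11.

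mt-Nd4, also of complex I and at chrM:10167-11544, was called with nilotinib 30 mg/kg. It ranged from 3705 to 5033 CPM (median 4052) in control mice and from 4053 to 6125 CPM (median 5500) with this dose. The log2 fold change was 0.33 ± 0.11 (p 0.0059, adjusted p 0.0764), and 5 of 8 mice were above every control mouse. With ponatinib 10 mg/kg and imatinib it was 0.30 (p 0.0113) and 0.28 (p 0.0167). With ponatinib 10 mg/kg mt-Nd4 was called higher by DESeq2, with DESeq2 size factors in place of TMM and without the L-NAME group.

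The remaining readable mRNAs were not called against control in the main fit of the 56 mice. For mt-Co1 the control range was 9476 to 12870 CPM, and log2 fold changes ran from -0.16 with nilotinib 10 mg/kg to 0.35 with imatinib (p 0.0129), where 6 of 8 mice were above every control mouse. With imatinib it was called higher by DESeq2, in the fit of the 2 groups alone, without the L-NAME group, without L-NAME mouse 10 and with the Gm42418 covariate. mt-Cytb ranged from 9223 to 11910 CPM in control mice, with log2 fold changes of 0.02 to 0.26, and was called with nilotinib 30 mg/kg when scaled by library totals. mt-Nd5 had 3605 to 5737 CPM (median 4557) in control mice and 2730 to 5052 CPM (median 3124) with nilotinib 10 mg/kg, and its log2 fold change was below 0 in 5 of 6 groups, from -0.39 ± 0.17 with nilotinib 10 mg/kg (p 0.0265, adjusted p 0.265) to 0.13 with imatinib. It was called lower with nilotinib 10 mg/kg in the fit of the 2 groups alone. mt-Nd6 had 31.1 to 56.0 CPM in control mice, with log2 fold changes of -0.23 to 0.46 and an SE of about 0.32 in each.

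Counted together, 5 of 16 members were called with imatinib, all higher, and 0 lower. Of all genes tested, 6.85% were called higher in this comparison. With nilotinib 30 mg/kg 5 of 16 were called higher beside 4.11% of all genes, with ponatinib 10 mg/kg 4 beside 8.19%, with L-NAME 4 beside 6.66% and with ponatinib 3 mg/kg 2 beside 1.4%. With nilotinib 10 mg/kg edgeR, DESeq2 and limma voom each called 0 members, beside 2.32% of all genes called higher by edgeR, and 4 members had an unadjusted p below 0.05. At an adjusted p below 0.05 the counts were 5 with imatinib (5.69% of all genes), 3 with ponatinib 10 mg/kg (7.24%) and 3 with L-NAME (5.55%). They were 0 with nilotinib 30 mg/kg (2.34%), nilotinib 10 mg/kg (0.468%) and ponatinib 3 mg/kg (0.0%). No member was called lower in that fit, beside 6.06% of all genes with imatinib, 3.65% with nilotinib 10 mg/kg, 5.24% with nilotinib 30 mg/kg, 7.29% with L-NAME, and 1.74% (3 mg/kg) and 6.85% (10 mg/kg) with ponatinib. The median log2 fold change was also taken over 10 members, the 2 rRNAs, mt-Ti and the 7 readable mRNAs. It was 0.40 with imatinib, 0.32 for nilotinib 30 mg/kg, 0.27 for ponatinib 10 mg/kg and 0.26 for L-NAME. For ponatinib 3 and nilotinib 10 mg/kg it was 0.07 and 0.06. mt-Tm, mt-Tw and mt-Tp, which also had reads, were left out, and mt-Ti, the tRNA kept, was the sole one called in the main fit. Over all 16 members tested the median was 0.39, -0.02 and 0.01 for nilotinib 30, nilotinib 10 and ponatinib 3 mg/kg. For imatinib, ponatinib 10 mg/kg and L-NAME it was the same to 2 decimals. These 16 include mt-Co2, mt-Atp6 and mt-Co3, whose counts do not measure their expression.

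Several of these calls were lost when reads outside genes entered the fit. With their share as a covariate 3 members stayed called higher with imatinib (mt-Rnr1, mt-Rnr2 and mt-Nd1), and both rRNAs did with ponatinib 3 and 10 mg/kg, but 0 did with nilotinib 30 mg/kg and 0 with L-NAME. In that fit mt-Rnr2 had a log2 fold change of 0.76 with imatinib, 0.58 with ponatinib 10 mg/kg, 0.50 with ponatinib 3 mg/kg, 0.24 with nilotinib 30 mg/kg and 0.27 with L-NAME. Members were also called lower in it, namely mt-Co1, mt-Nd5 and mt-Nd6 with nilotinib 10 mg/kg, mt-Nd6 with ponatinib 10 mg/kg, and mt-Nd5 and mt-Nd6 with L-NAME. Since the covariate differs between groups, its effect and that of treatment cannot be told apart. With the level of Gm42418 as the covariate instead, mt-Rnr1 (0.66), mt-Rnr2 (0.91), mt-Nd1 (0.56) and mt-Nd2 (0.54) stayed called with imatinib, both rRNAs with ponatinib 3 mg/kg, mt-Rnr2 with ponatinib 10 mg/kg (0.76) and mt-Nd4 with nilotinib 30 mg/kg. With L-NAME neither rRNA did, and mt-Nd6 was called higher in that fit with imatinib, nilotinib 30 mg/kg, ponatinib 10 mg/kg and L-NAME. Without the 5 mice that stood apart the calls were 5, 5, 2 and 3 with imatinib, nilotinib 30 mg/kg, ponatinib 3 and ponatinib 10 mg/kg, 2 with L-NAME, and 1 (mt-Rnr2) with nilotinib 10 mg/kg.

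**Figure D4:**
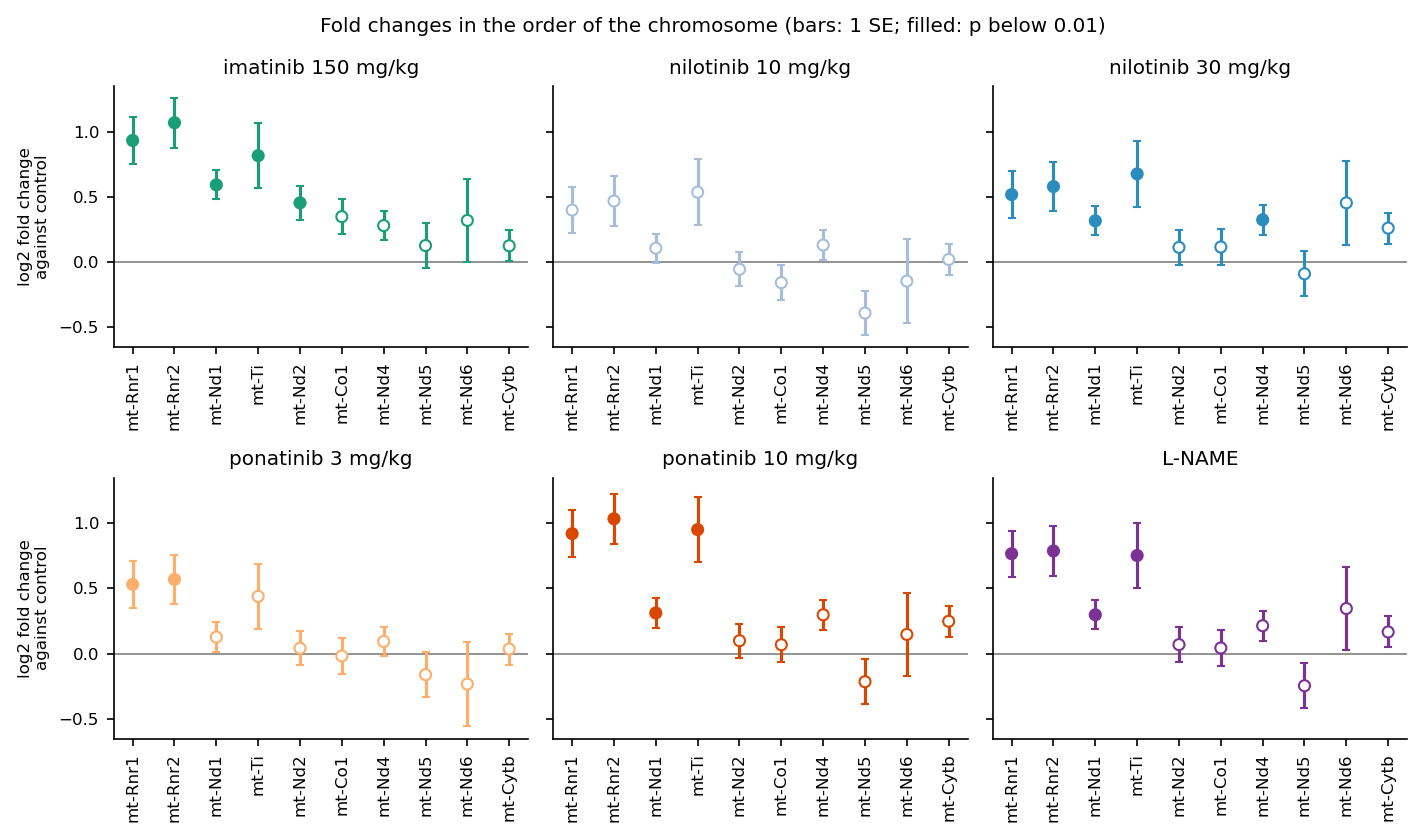
Log2 fold change against control of the 2 rRNAs, mt-Ti and the 7 readable mRNAs in chromosome order, 1 panel per treated group of 8 mice, with bars of 1 SE and filled points where the unadjusted p is below 0.01. In each panel both rRNAs lie above all 7 mRNAs, and mt-Nd5 lies below 0 in all panels but that of imatinib (0.13).

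Along the chromosome the fold changes were unequal. In all 6 comparisons the fold change of each of the 7 readable mRNAs was below that of both rRNAs. With imatinib the values ran from 0.93 and 1.07 for the rRNAs through 0.59 for mt-Nd1, 0.46 for mt-Nd2, 0.35 for mt-Co1 and 0.28 for mt-Nd4 to 0.13 for both mt-Nd5 and mt-Cytb, with mt-Nd6 at 0.32 ± 0.32. The tRNAs tested did not follow this order with imatinib, with mt-Ti at 0.82, mt-Tm at 0.11, mt-Tw at -0.06 and mt-Tp at 1.39. In the other groups the rRNAs and readable mRNAs did not show such a graded order. With ponatinib 10 mg/kg mt-Nd2 and mt-Co1 (0.10 and 0.07) were below mt-Nd4 and mt-Cytb (0.30 and 0.25).

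Ratios between members within a mouse are free of library scaling. The reads on mt-Nd1 per 100 reads on mt-Cytb were 43.9 to 60.7 in control mice (median 53.2) and 60.2 to 80.9 with imatinib (median 74.2). In 7 of 8 imatinib mice this ratio was above that of all other 48 mice, whose highest value was 66.4. The medians of the other treated groups were 54.8 to 58.2. The reads on mt-Nd5 per 100 on mt-Cytb had a median of 47.1 in control mice (36.8 to 56.9). Their medians were 41.3 with imatinib, 30.7 and 36.5 with nilotinib 10 and 30 mg/kg, 40.0 and 29.4 with ponatinib 3 and 10 mg/kg, and 33.9 with L-NAME. All groups overlapped control in this ratio. These are descriptions without a test, since the pairs of genes were chosen with values known.

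Treated groups were also compared with each other. At the same dose of 10 mg/kg, ponatinib had higher rRNA levels than nilotinib, with log2 differences of 0.52 ± 0.18 for mt-Rnr1 (p 0.00461, adjusted p 0.101) and 0.57 ± 0.19 for mt-Rnr2 (p 0.00408, adjusted p 0.0945). In each rRNA 4 of 8 ponatinib mice were above every nilotinib mouse, and 3.67% of all genes were called higher in this comparison. The remaining 14 members tested had differences of -0.53 to 0.77 and were not called. Neither rRNA was called with reads outside genes as a covariate, or without nilotinib mouse 30 or 36 or ponatinib mouse 48, and 1 was without nilotinib mouse 19.

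Between the doses of ponatinib (10 against 3 mg/kg) 0 of 16 members were called by edgeR, DESeq2 or limma voom, beside 5.78% of all genes in either direction, and 3 had an unadjusted p below 0.05. The difference was 0.39 for mt-Rnr1 (95% interval 0.04 to 0.74) and 0.47 for mt-Rnr2 (0.09 to 0.84). Between the doses of nilotinib (30 against 10 mg/kg) 0 were called by the same tools, beside 1.32% of all genes, and 2 had a p below 0.05. Here the differences were 0.12 (-0.23 to 0.47) for mt-Rnr1 and 0.11 (-0.26 to 0.48) for mt-Rnr2.

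The drugs at their highest doses were set side by side, at doses that differ. Ponatinib 10 mg/kg and imatinib 150 mg/kg had log2 differences in rRNA levels of -0.01 (-0.36 to 0.33) for mt-Rnr1 and -0.04 (-0.41 to 0.34) for mt-Rnr2. In mt-Nd2 the log2 difference was -0.36 ± 0.13, lower with ponatinib (p 0.0093, adjusted p 0.236), with 4 of 8 mice below every imatinib mouse. This was the sole member called, beside 2.21% of all genes called lower, and the call was lost on leaving out any 1 of 9 of these 16 mice. mt-Nd1 and mt-Co1 had differences of -0.28 (p 0.0145) and -0.28 (p 0.043), and without the 5 mice that stood apart mt-Nd1, mt-Nd2 and mt-Co1 were called lower. Between ponatinib 10 and nilotinib 30 mg/kg 0 members were called by the 3 tools, beside 5.64% of all genes, and 2 had a p below 0.05, both rRNAs. Between imatinib and nilotinib 30 mg/kg 0 were called by the 3 tools, beside 7.55% of all genes, and 4 had a p below 0.05. These included mt-Rnr2 (0.49, p 0.0121), mt-Nd2 (0.34, p 0.0122) and mt-Nd1 (0.28, p 0.0162).

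Subunits of the same complexes that are encoded in the nucleus were called higher at larger shares than the shares of all genes given above. Of 36 nuclear complex I subunits tested, 27 were called higher with imatinib, 27 with ponatinib 10 mg/kg, 22 with L-NAME, 18 and 6 for the higher and the lower dose of nilotinib and 3 for the lower dose of ponatinib. Ndufs1, an iron-sulfur subunit, was the sole one called lower, in all of these groups but ponatinib 3 mg/kg. In the groups where it was called, 3.65% to 7.29% of all genes were called lower. With reads outside genes as a covariate 1 complex I subunit was called lower with nilotinib 30 mg/kg and 0 in the other groups. With Gm42418 as the covariate 0 were called lower in any group. Ndufb11, an accessory subunit, had a log2 fold change of 0.84 ± 0.12 with imatinib (adjusted p 4.15e-06). The median over the 36 subunits was 0.62 with imatinib and 0.65 with ponatinib 10 mg/kg, beside 0.13 to 0.59 and -0.22 to 0.31 for the 5 readable complex I mRNAs of mitochondrial DNA.

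For complex III, 7 of 9 nuclear subunits were called higher with imatinib, 6 with ponatinib 10 mg/kg and 6 with L-NAME, and 5, 5 and 1 with nilotinib 10, nilotinib 30 and ponatinib 3 mg/kg. Uqcr11, a small accessory subunit, had 1.13 ± 0.17 with ponatinib 10 mg/kg (adjusted p 3e-05), where mt-Cytb had 0.25 ± 0.12 (adjusted p 0.172). For complex IV, 11 of 12 were called higher with imatinib, ponatinib 10 mg/kg and L-NAME, 9 and 8 for the higher and the lower dose of nilotinib and 3 for the lower dose of ponatinib. Cox5b, a structural subunit, had 1.01 ± 0.17 with ponatinib 10 mg/kg (adjusted p 5.93e-05), where mt-Co1 had 0.07 ± 0.14 (adjusted p 0.818). Of 16 ATP synthase subunits 9, 3, 8, 2, 10 and 10 were called higher with imatinib, nilotinib 10, nilotinib 30, ponatinib 3, ponatinib 10 mg/kg and L-NAME. Atp5b, the catalytic beta subunit, was called lower with ponatinib 10 mg/kg and L-NAME, beside 6.85% and 7.29% of all genes. With reads outside genes as a covariate 0 of the 16 were called lower. With Gm42418 1 was, with L-NAME. The mitochondrial partners of this complex, mt-Atp6 and mt-Atp8, could not be read.

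Over all 73 nuclear subunits tested, 54 were called higher with imatinib, 54 with ponatinib 10 mg/kg, 49 with L-NAME, 40 and 22 for the higher and the lower dose of nilotinib and 9 for the lower dose of ponatinib. Without the 5 mice that stood apart these counts were 49, 53, 47, 28, 20 and 7. With reads outside genes as a covariate they were 44, 34, 20, 12, 2 and 4. With Gm42418 as the covariate they were 38, 29, 21, 12, 1 and 4. Whether nuclear and mitochondrial subunits differ in their change was not tested.

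**Figure D5:**
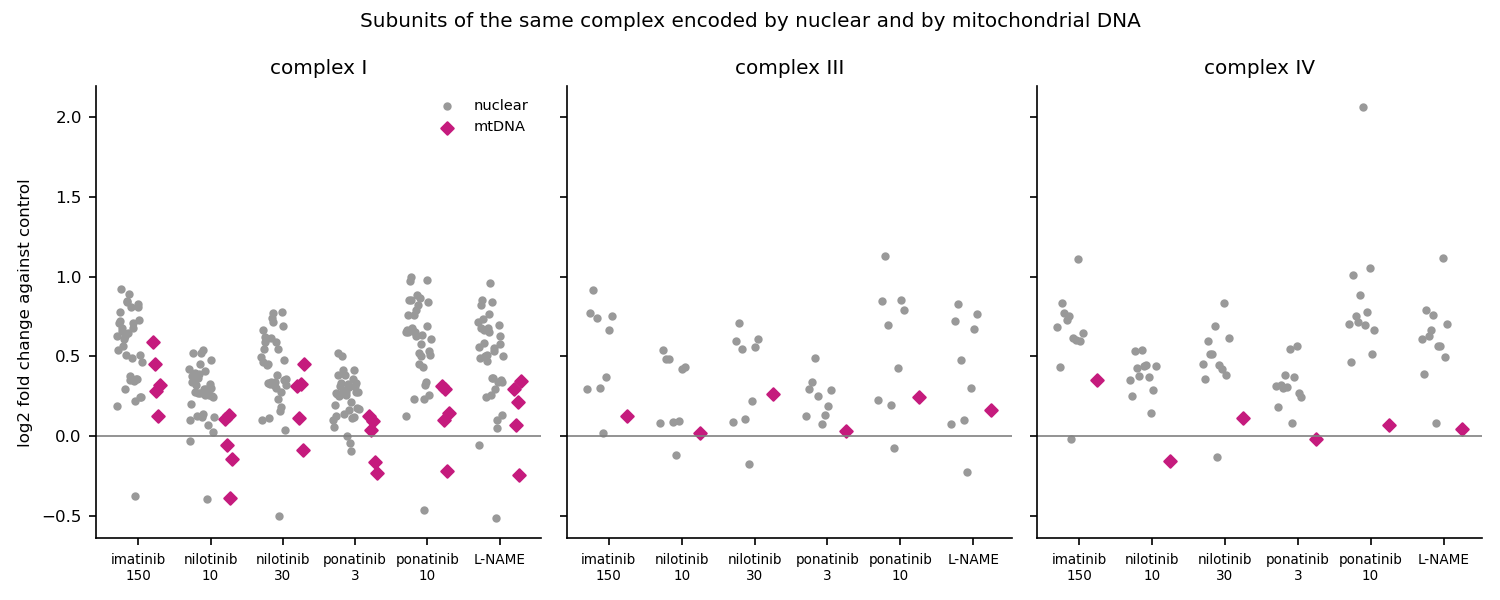
Log2 fold change against control of nuclear subunits (grey) and readable mitochondrial subunits (magenta diamonds) of complexes I, III and IV, 1 point per gene and 8 mice per group. With ponatinib 10 mg/kg mt-Cytb lies at 0.25 and mt-Co1 at 0.07, while the nuclear medians of their complexes are 0.70 and 0.73.

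The nuclear genes that copy, transcribe and process mitochondrial DNA and RNA were called in small numbers. Of 16 genes of transcription and replication, among them the polymerase Polrmt and the packaging factor Tfam, 1 was called higher with imatinib (6.85% of all genes were). In the other 5 comparisons 0 were called. By edgeR 6 of the 16 had a p below 0.05 with imatinib, and 1 to 2 did in the other 5. The called gene was Ssbp1, the single-stranded DNA binding protein of mitochondria, with a log2 fold change of 0.68 ± 0.25 (p 0.00935, adjusted p 0.0742), and was not called without the 5 mice that stood apart or with either covariate. Of 26 genes of RNA processing and stability, 2 were called higher with imatinib (Hsd17b10 and Rexo2) and 2 with ponatinib 10 mg/kg (Fastk and Hsd17b10), beside 6.85% and 8.19% of all genes. With either covariate 0 were called with ponatinib 10 mg/kg. Hsd17b10, a subunit of the mitochondrial RNase P that cuts tRNAs from the precursor, had 0.48 ± 0.12 with imatinib (adjusted p 0.00415). Fastk had 0.50 ± 0.15 with ponatinib 10 mg/kg (adjusted p 0.0174), and with L-NAME it was called at 0.40 (p 0.00995) but not without the 5 mice or with either covariate. A mitochondrial form of its protein acts on mt-Nd6 mRNA.

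Other genes of this list were called lower, 1 with nilotinib 10 mg/kg, 2 with nilotinib 30 mg/kg and 3 with L-NAME, beside 3.65%, 5.24% and 7.29% of all genes. Lrpprc, which binds and stabilizes mitochondrial mRNAs, had a log2 fold change of -0.60 ± 0.13 with nilotinib 30 mg/kg (adjusted p 0.00297), -0.47 ± 0.13 with nilotinib 10 mg/kg (adjusted p 0.0499) and -0.60 ± 0.13 with L-NAME (adjusted p 0.00128). With imatinib and ponatinib 10 mg/kg it was -0.32 (p 0.019) and -0.33 (p 0.0156). Ptcd3, a protein of the small mitochondrial ribosomal subunit, was called lower with nilotinib 30 mg/kg and L-NAME, and Elac2, which trims the ends of tRNAs, with L-NAME. With either covariate 1 gene of the list was called lower with nilotinib 30 mg/kg and 1 with L-NAME. With nilotinib 10 mg/kg 1 was called lower with reads outside genes as a covariate and 0 with Gm42418.

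Of 8 nuclear regulators of mitochondrial genes, Gabpa, a subunit of nuclear respiratory factor 2, was called lower with nilotinib 30 mg/kg and ponatinib 10 mg/kg. Its log2 fold changes were -0.50 ± 0.13 (adjusted p 0.0147) and -0.41 ± 0.13 (adjusted p 0.0302), beside 5.24% and 6.85% of all genes called lower. Esrra, the estrogen-related receptor alpha, was called higher with ponatinib 10 mg/kg (0.58 ± 0.20, adjusted p 0.0398), beside 8.19% of all genes. Both calls with ponatinib 10 mg/kg were lost with either covariate, and that with nilotinib 30 mg/kg with Gm42418. Among 14 genes that reflect mitochondrial content, 3 were called higher and 0 lower with imatinib, 3 and 1 with ponatinib 10 mg/kg, 1 and 4 with L-NAME, 0 and 3 with nilotinib 30 mg/kg and 0 and 2 with nilotinib 10 mg/kg. The shares of all genes called higher and lower were 6.85% and 6.06% with imatinib and 8.19% and 6.85% with ponatinib 10 mg/kg. They were 6.66% and 7.29% with L-NAME, 4.11% and 5.24% with nilotinib 30 mg/kg and 2.32% and 3.65% with nilotinib 10 mg/kg. With reads outside genes as a covariate 1 of the 14 was called with imatinib and 0 in the other 5 groups. With Gm42418 2 were called with imatinib, 1 with nilotinib 30 mg/kg and 0 in the other 4. Phb2, a prohibitin of the inner membrane, had 0.50 ± 0.13 with imatinib (adjusted p 0.00685), and Immt, a protein of the cristae junctions, had -0.36 ± 0.10 with L-NAME (adjusted p 0.0155). The list's median log2 fold change was 0.05 to 0.12 in the 6 comparisons.

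Markers of liver cells were called in some of the same groups. The shares of all genes called higher and lower were 6.85% and 6.06% with imatinib and 6.66% and 7.29% with L-NAME. They were 2.32% and 3.65% with nilotinib 10 mg/kg and 4.11% and 5.24% with nilotinib 30 mg/kg. With ponatinib they were 1.4% and 1.74% at 3 mg/kg and 8.19% and 6.85% at 10 mg/kg. With imatinib the Kupffer cell markers Cd5l and Adgre1 were called lower (2 of 6), and the summed level of the 6 markers was 341.3 to 751.4 RPM against 610.4 to 1315 in control mice. Clec4f, of the same list, was called higher in the other 5 treated groups (log2 fold changes of 0.56 to 0.69), and Marco with both doses of ponatinib. With ponatinib 3 and 10 mg/kg 4 of 5 erythroid markers were called higher, and with nilotinib 30 mg/kg 3 were. Their sum was 173.9 to 1296, 147.1 to 1068 and 255.3 to 781.8 RPM against 166.3 to 384.7 in control mice. The 9 hepatocyte markers were called in both directions, with 2 higher and 2 lower for imatinib, 1 and 2 for nilotinib 10 mg/kg, 2 and 4 for nilotinib 30 mg/kg, 2 and 0 for ponatinib 3 mg/kg, 3 and 2 for ponatinib 10 mg/kg and 3 and 4 for L-NAME. Apoa1, an apolipoprotein of HDL, was among the higher in all 6, and Cps1, a urea cycle enzyme, among the lower in all but ponatinib 3 mg/kg. Ptprc, of 5 lymphocyte markers, was called lower with imatinib, and Col3a1, of 7 stellate cell markers, with imatinib and both doses of ponatinib. Of 6 endothelial markers Clec4g was called higher with nilotinib 30 mg/kg and Kdr lower with ponatinib 3 mg/kg, and no cholangiocyte marker was called. No marker of the 7 lists was at 0 in every mouse of a group, and the part of these cells in the mitochondrial levels was not tested.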

How the data were processed

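The authors extracted total RNA from liver, selected poly(A) RNA, made NEBNext Ultra libraries and sequenced them on a NextSeq 500. Per the labels, reads were aligned to GRCm38 with TopHat2 2.0.14 and Bowtie2 2.1.0 (SAMtools 0.1.18), and HTSeq 0.6.1p1 counted reads per gene. The deposited values are raw read counts per gene and mouse. HTSeq's closing lines (reads outside genes, ambiguous, not unique) are no genes and stayed out of library sizes and tests. The annotation release and the stranded setting are not given in the sources used here.

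CPM were computed with TMM factors (edgeR 4.0.16, R 4.3.3), and fold changes with edgeR's quasi-likelihood test after filterByExpr on 7 groups, with edgeR's default prior count. SE is the log2 fold change over the square root of F, and a 95% interval is 1.96 SE to each side. An unadjusted p of 0.01 is the cut-off of the study's methods. The mice of a group are separate animals, and no 2 libraries were identical. Alternatives were other scalings, filters and sets of mice, DESeq2 1.42.0, limma 3.58.1 voom, covariates, and leaving out each mouse. Of the lists' genes, up to 3 per list with the smallest p are named, beside those that a count of few called genes covers. The gene set and the lists were chosen with earlier results of these data known. Sequences and windows came from GRCm38 transcripts. The nuclear genome itself was not used here.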

Additional observations from a re-analysis of the deposited data

Results flagged for a closer look

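In groups of 8 mice, a mouse was picked out when its gap to the nearest other mouse was above Dixon's 95% critical value as a share of the group's range. About 1 in 20 groups meets this by chance, and 84 groups were looked at. Ponatinib 10 mg/kg mouse 14 was the highest of its group in 6 mRNAs, with 9477 CPM of mt-Nd1, 9182 of mt-Nd2, 19520 of mt-Co1, 8204 of mt-Nd4, 145.4 of mt-Nd6 and 20870 of mt-Cytb, and in the share of reads on mitochondrial genes, 7.32%. This mouse also had 15.2% of its uniquely aligned reads outside genes. Nilotinib 10 mg/kg mouse 9 was highest in mt-Nd1 (7190 CPM), mt-Co1 (14900 CPM) and mt-Cytb (12310 CPM), with a mitochondrial share of 5.27%.

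For mt-Nd6, imatinib mouse 21 (120.1 CPM) and L-NAME mouse 10 (161.6 CPM) stood far above their groups, and L-NAME mouse 10 did so for mt-Rnr2 (2778 CPM). These mice had 14.1% and 16.8% of reads outside genes. In mt-Ti, ponatinib 10 mg/kg mouse 2 had 52.5 CPM. In the ratio of rRNA reads to 100 mRNA reads, imatinib mouse 27 had 7.58.

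Treated groups differed from each other in a direct test for both rRNAs between ponatinib and nilotinib at 10 mg/kg (log2 differences of 0.52 and 0.57) and for mt-Nd2 between ponatinib 10 mg/kg and imatinib (-0.36). In all 3 the unadjusted p was below 0.01 and the adjusted p above 0.05.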

How the results depend on the processing

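Of 20 called fold changes against control, none changed sign under the alternatives other than leaving out each mouse. Signs were not recorded for the fits that left out each mouse in turn. DESeq2, its size factors in place of TMM, and normalization without the mitochondrial genes kept all 20 calls. Other settings kept 17 to 19 of 20, or 16 of 16 without the L-NAME group, apart from both covariates: 7 were kept with the share of reads outside genes and 8 with Gm42418 (chosen after seeing the data, as were leaving out L-NAME mouse 10 and the 5 mice). The cause was not tested.

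Counts of members called that moved by more than 1.5 times were the following. With reads outside genes as a covariate, counts in either direction were 3 for imatinib, 3 for nilotinib 10 mg/kg, 0 for nilotinib 30 mg/kg, 2 for L-NAME, 0 for ponatinib 10 against nilotinib 10 mg/kg, 3 for ponatinib 10 mg/kg against imatinib and 3 for imatinib against nilotinib 30 mg/kg. With Gm42418 they were 2 for nilotinib 30 mg/kg, 2 for ponatinib 10 mg/kg, 2 for L-NAME, 2 between the ponatinib doses, 0 for ponatinib 10 against nilotinib 10 mg/kg, 0 for ponatinib against imatinib and 1 for imatinib against nilotinib 30 mg/kg. With library totals they were 1 for nilotinib 10 mg/kg, 1 for ponatinib 3 mg/kg, 0 for ponatinib 10 against nilotinib 10 mg/kg and 2 for ponatinib against imatinib. Without a filter on low counts they were 3 for nilotinib 10 mg/kg, 1 between the nilotinib doses, 4 for ponatinib 10 against nilotinib 10 mg/kg, 0 for ponatinib against imatinib and 1 for imatinib against nilotinib 30 mg/kg. In fits of the 2 groups alone they were 2, 1, 0 and 1 for nilotinib 10 mg/kg, the ponatinib doses, ponatinib against imatinib and imatinib against nilotinib 30 mg/kg. Without the L-NAME group, and likewise without L-NAME mouse 10 alone, they were 1 for nilotinib 10 mg/kg, 1 between the ponatinib doses, 1 for ponatinib 10 against nilotinib 30 mg/kg and 2 for imatinib against nilotinib 30 mg/kg, and without that mouse 2 for L-NAME. Without the 5 mice they were 1 for nilotinib 10 mg/kg, 2 for L-NAME and 3 for ponatinib against imatinib. Normalization without mitochondrial genes gave 0 for ponatinib against imatinib. An adjusted p below 0.05 gave 0 for nilotinib 30 mg/kg, ponatinib 3 mg/kg, ponatinib 10 against nilotinib 10 mg/kg and ponatinib against imatinib.

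Leaving out each mouse in turn gave 5 to 7 calls for imatinib, 0 to 3 for nilotinib 10 mg/kg, 0 to 5 for nilotinib 30 mg/kg, 0 to 2 for ponatinib 3 mg/kg, 3 to 5 for ponatinib 10 mg/kg and 2 to 4 for L-NAME. Between treated groups the ranges were 0 to 2 for the ponatinib doses, 0 to 1 for the nilotinib doses, 0 to 2 for ponatinib 10 against nilotinib 10 mg/kg, 0 to 2 for ponatinib 10 against nilotinib 30 mg/kg, 0 to 3 for ponatinib against imatinib and 0 to 4 for imatinib against nilotinib 30 mg/kg. The count fell to 0 for nilotinib 30 mg/kg without its mouse 15, for ponatinib 3 mg/kg without control mouse 40 or its own mouse 41 or 47, and for ponatinib against nilotinib at 10 mg/kg without nilotinib mouse 30 or 36 or ponatinib mouse 48. It rose to 3 for nilotinib 10 mg/kg without its mouse 36 (1 without its mouse 9 or 30 or control mouse 52), to 1 between the nilotinib doses without nilotinib 10 mg/kg mouse 9, to 2 between the ponatinib doses without ponatinib 3 mg/kg mouse 41, to 2 for ponatinib 10 against nilotinib 30 mg/kg without ponatinib mouse 18, to 3 for ponatinib against imatinib without ponatinib mouse 14 and to 4 for imatinib against nilotinib 30 mg/kg without imatinib mouse 56. With uniquely aligned reads as the denominator, the median mitochondrial share was 3.81% in control mice, 3.70% and 4.49% with nilotinib 10 and 30 mg/kg and 3.72% with ponatinib 3 mg/kg. No paired analysis was possible because each replicate number names 1 mouse of 1 group. The 12 members given as having 0 reads had none in any mouse, so the deepest library adds no separate check. In that library mt-Tq, mt-Ta and mt-Nd4l, whose medians were 0, had 123, 60 and 8 reads.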
